A study of Mus musculus with 4 samples.

Results

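Iron and haem handling was examined in sorted peritoneal macrophages through 10 genes: the haemoglobin scavenger receptor Cd163, the plasma haemoglobin binder haptoglobin (Hp), haem oxygenase Hmox1, biliverdin reductase Blvrb, transferrin receptor Tfrc, the phagosomal metal transporter Slc11a1, the iron exporter ferroportin (Slc40a1), the ferritin subunits Fth1 and Ftl1, and the transcription factor Spic. The members were all probes whose platform annotation carries 1 of these symbols, which gave 22 probes of 45281 and 10 genes of 19057 named on the array. Of these 22 probes, 17 were tested because they were detected on at least 2 arrays, against 16713 tested probes in all. Detected means a deposited detection p-value under 0.05.

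Expression was measured on Illumina bead arrays in 2 samples labelled control and 2 labelled Mac-Gata6 KO. The knockout mice carried a floxed Gata6 and LysM-cre, a Cre recombinase driven from the lysozyme M locus and so active across myeloid cells. All samples were untreated peritoneal macrophages of strain C57BL/6 from animals 8 to 16 weeks old. Whether the controls carried Cre, and whether the 2 samples of a group came from separate animals or pools, is not stated in the labels, so p-values reflect only how far these samples spread, possibly for technical reasons. The series asks which genes depend on GATA6, a transcription factor of the resident macrophages of this cavity.

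Macrophages take up haemoglobin through CD163, and whole red cells by phagocytosis. Haem oxygenase opens the haem ring and releases iron, carbon monoxide and biliverdin, which biliverdin reductases turn into bilirubin. The iron is stored in ferritin, a shell of heavy and light subunits, or leaves the cell through ferroportin, while transferrin receptor brings iron in from plasma transferrin. Ferritin and transferrin receptor are regulated to a large part by iron-responsive elements in their RNAs. For ferritin these act on translation, which an array does not read, and for transferrin receptor on RNA stability.

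Cd163 and Tfrc were the 2 genes that rose most among the members, and the bases just before their annotated starts are shown for that reason. RefSeq promoter windows (GRCm38.p6) matched 7 of the 10 symbols, and Hmox1, Hp and Slc40a1 were not matched. Each line gives the 250 bases before 1 start on the + strand, chr6:124304401-124304650 for Cd163 and chr16:32608646-32608895 for Tfrc, with matches to GATA in capitals.
Cd163: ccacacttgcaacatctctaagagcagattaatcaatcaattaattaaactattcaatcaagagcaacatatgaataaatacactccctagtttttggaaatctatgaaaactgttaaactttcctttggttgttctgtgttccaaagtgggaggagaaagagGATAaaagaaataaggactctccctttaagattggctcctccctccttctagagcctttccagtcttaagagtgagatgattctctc
Tfrc: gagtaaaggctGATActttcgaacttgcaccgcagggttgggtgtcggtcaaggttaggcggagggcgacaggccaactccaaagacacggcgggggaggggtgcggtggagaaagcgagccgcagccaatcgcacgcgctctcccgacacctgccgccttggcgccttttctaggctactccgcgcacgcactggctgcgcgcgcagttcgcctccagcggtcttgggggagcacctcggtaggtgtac
The Cd163 window held 1 GATA, at position -87 from the start, and this Tfrc window held 1, at position -239. A second annotated Tfrc start, not shown, had 0 matches to GATA in its window. GATA on either strand occurred in 53.6% of 32851 promoter windows of this length, so a match is common. The longer words AGATAA and TGATAA, each of which contains GATA, occurred in 9.99% and 7.94% of all windows on either strand and in 0 of the 10 windows of the members. Other longer words that contain GATA, such as TGATAG, were not searched. TGACNNNGC, the core word of antioxidant response elements, had no match in the 2 windows shown, against 10.2% of all windows. These matches describe letters and show no binding.

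Gata6 itself was read by 2 probes. The bright one read 13.77 and 13.66 (log2 normalized intensity) in control and 13.07 and 12.83 in the knockout, a change of -0.76 ± 0.16 (SE; limma adjusted p = 0.0333). With any 1 array left out this change did not pass, at -0.91 to -0.63. The dim probe read 6.60 and 6.43 in control, both detected, and lay below detection in the knockout (at least 1.74-fold lower, limma adjusted p = 0.0160). No source used here places either probe inside or outside the deleted exons, so they do not check the labels. Defining macrophage genes such as Csf1r, Mertk, Itgam and Lyz2 were detected, as were all 11 genes of a core macrophage list that the array held, though Fcgr1 and Adgre1 fell (4 of 16 probes lower, none higher).

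In Mac-Gata6 KO macrophages Cd163, Tfrc and Hmox1 were higher and Hp was lower than in control. The change was about 8-fold for the bright Cd163 probe and for the Hp probes, between 3-fold and 4-fold for Tfrc and about 2-fold for Hmox1. Ferritin (Fth1, Ftl1), Slc11a1 and Blvrb, all bright, did not pass the test. Spic was not detected on any array, and ferroportin was detected on 1 knockout array alone. Of the 17 tested probes 5 were higher and 3 lower, at an adjusted p under 0.05 over all tested probes. Over all tested probes 10.7% passed in either direction, 5.63% higher and 5.06% lower. One of the 5 higher probes, the dim one for Cd163, was detected in the knockout alone and so had to differ to be tested. Among the 16 member probes detected on all 4 arrays 7 passed, against 9.1% of all such probes. By gene, 3 were higher, 1 was lower, 4 did not pass and 2 had no tested probe. The median log2 change was 0.11 over the 17 member probes and -0.0014 over all tested probes. The groups did not overlap for 11 of the 17 probes (64.7%), against 55.3% of all tested probes.

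**Figure D1:**
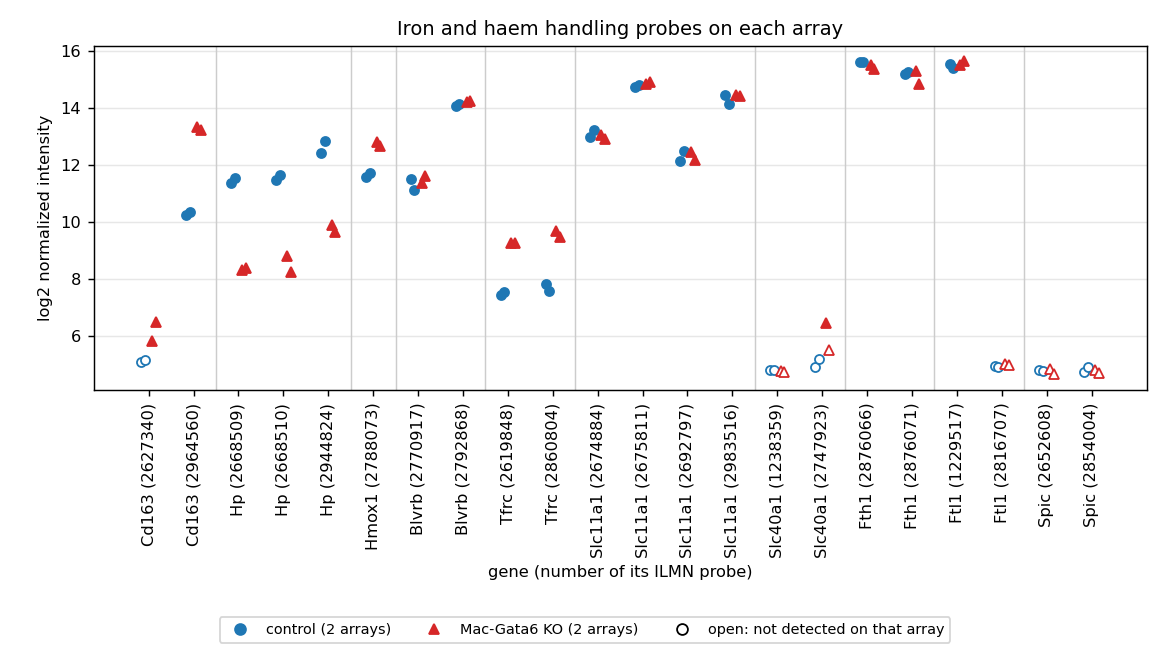
Log2 normalized intensity (vertical axis) of the 22 iron and haem handling probes, 1 column per probe, on the 2 control arrays (blue circles) and the 2 Mac-Gata6 KO arrays (red triangles); open symbols were not detected on that array. The knockout arrays lie clearly above control for the bright Cd163 probe, Hmox1 and Tfrc and clearly below it for the 3 Hp probes, while ferritin, Slc11a1 and Blvrb lie together.

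Cd163, the haemoglobin scavenger receptor, had the largest rise of the 10 genes. Its bright probe had raw intensities of 1405 and 1286 in control and 9950 and 9990 in the knockout. After normalization these were 10.23 and 10.35 against 13.33 and 13.21 on the log2 scale. Arrays of 1 group thus lay close together and the groups far apart. The log2 change was 2.98 ± 0.15 (limma adjusted p = 0.00019), or 7.88-fold. The second Cd163 probe was close to background, with raw intensities of 141 and 141 in control and 164 and 211 in the knockout. It was detected on both knockout arrays and neither control array and was at least 1.32-fold higher (limma adjusted p = 0.0442), and it did not pass with median scaling (0.0549), without the detection filter (0.100) or without either control array (0.133 and 0.109, all limma adjusted p).

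Hp, which binds free haemoglobin in plasma and is made by the liver and by myeloid cells, fell by nearly the same factor by which Cd163 rose. Its 3 probes gave the same picture. The probe ILMN_2668509 read 11.37 and 11.52 on the log2 scale in control and 8.31 and 8.37 in the knockout, the second 11.45 and 11.63 against 8.78 and 8.25, and the third 12.40 and 12.82 against 9.90 and 9.63. With every probe both knockout values lay far below both control values. The log2 changes were -3.11 ± 0.15, -3.03 ± 0.21 and -2.85 ± 0.20 (limma adjusted p = 0.00016, 0.0006 and 0.0006), which left 11.6%, 12.3% and 13.9% of the control signal. Hp was still detected on both knockout arrays by every probe.

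Hp is also a granule gene of neutrophils, so neutrophil markers were read beside it. Of 22 neutrophil probes on the array 7 were tested, for 4 genes, with 4 probes lower and 1 higher. The summed normalized intensity of the list was 11564 to 11971 in control and 8956 to 9844 in the knockout. Bright probes weigh most in this sum, among them those of Csf3r. Its brightest, ILMN_1255648, read 12.46 and 12.53 on the log2 scale in control and 11.77 and 11.75 in the knockout. The lower probes included this one (-0.74 ± 0.14) and ILMN_2806180 (-0.72 ± 0.14), while the other tested Csf3r probes did not pass. Lcn2, which binds bacterial siderophores, fell from 8.10 and 8.24 to 6.11 and 5.53 with 1 knockout array below detection (-2.35 ± 0.22, limma adjusted p = 0.0017). S100a8 changed by -1.07 ± 0.20 and did not pass in 3 of the 4 fits that left out 1 array, while the gelatinase Mmp9 rose by 1.81 ± 0.17. Cxcr2, Ltf, Mmp8, Mpo, Ngp, Retnlg and S100a9 were not detected on any array. The part of neutrophil RNA in the Hp values was not tested. In bulk RNA such as this, fewer cells of a type and less RNA per cell cannot be told apart.

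Hmox1, the inducible enzyme that breaks down haem, rose by 2.11-fold. Its single probe read 3396 and 3082 raw intensity units in control and 6897 and 6961 in the knockout, or 11.58 and 11.72 against 12.78 and 12.67 after normalization. Arrays of 1 group lay close together and the groups did not overlap. The log2 change was 1.07 ± 0.15 (limma adjusted p = 0.0078). Without knockout 1 the change was 1.03 with an adjusted p of 0.0559 by limma, and it passed with each of the other arrays left out.

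Blvrb, an NADPH-dependent reductase of biliverdin and flavins, did not pass with either probe. The bright probe read 14.06 and 14.13 in control and 14.21 and 14.24 in the knockout, and the dimmer one 11.50 and 11.11 against 11.35 and 11.60. The dimmer probe's groups overlapped, while those of the bright probe did not. The log2 changes were 0.13 (95% interval -0.21 to 0.48) and 0.16 (-0.30 to 0.63), so a change of the size seen for Hmox1 lay outside both intervals.

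Tfrc, which imports transferrin-bound iron, was higher in the knockout with both probes. The first read 7.43 and 7.55 on the log2 scale in control and 9.25 and 9.25 in the knockout, and the second 7.82 and 7.58 against 9.67 and 9.47. With both probes the groups lay well apart. The log2 changes were 1.76 ± 0.14 and 1.87 ± 0.17 (limma adjusted p = 0.0011 and 0.0014), or 3.38-fold and 3.65-fold. Raw intensities were 290 to 360 in control and 705 to 913 in the knockout. Without background correction the log2 changes were 1.25 and 1.39, and with the authors' values 1.29 and 1.43.

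Tfrc is known to be high in dividing cells and in red cell precursors, so markers of both were read beside it. Of 15 tested probes of a proliferation list 3 were lower (both Tk1 probes and Top2a) and none higher, with a summed level of 9806 to 9936 in control and 7382 to 7409 in the knockout. Top2a and 1 Tk1 probe passed in none of the 4 fits with 1 array left out and the other Tk1 probe in 1. The red cell precursor genes Alas2, Slc4a1, Epor, Epb42 and Gata1 were not detected on any array, while the change of Klf1, 0.60 ± 0.20 (log2), fell short of the threshold.

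Globin RNA was also higher in the knockout, beside Cd163, Hmox1 and Tfrc. Of 10 tested erythroid probes 9 were higher, all of them for Hba-a1, Hbb-bs and Hbb-bt, beside 5.63% higher over all tested probes. The beta globin transcripts Hbb-bs and Hbb-bt are near-identical, so a probe for either cannot be assigned to it with certainty. The list had a summed normalized intensity of 465 to 472 in control and 2104 to 2261 in the knockout. Of the 9 probes 8 were detected on the knockout arrays alone and so had to differ to be tested. These were at least 2.52-fold to 5.72-fold higher. The one detected on all 4 arrays, for Hbb-bt, read 6.17 and 5.93 in control and 7.62 and 7.97 in the knockout (1.74 ± 0.19, limma adjusted p = 0.0028). The part of red cell RNA, free or taken up by the macrophages, in the other values was not tested.

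**Figure D2:**
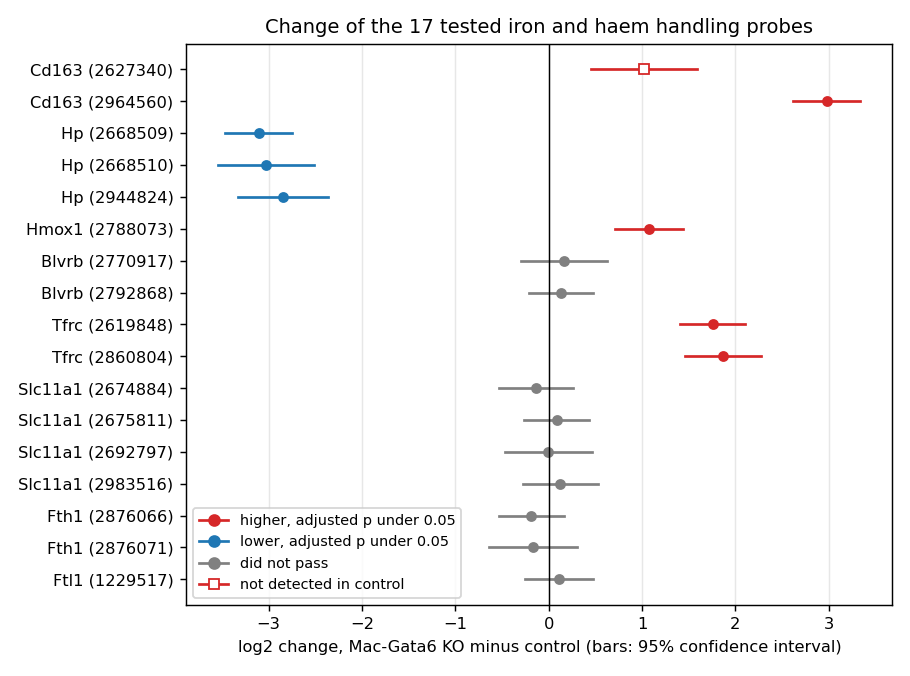
Log2 change, Mac-Gata6 KO minus control (horizontal axis), of the 17 tested probes with 95% confidence intervals from the limma fit; red was higher, blue lower and grey did not pass, and the open square was not detected in control. The intervals of Cd163, Tfrc, Hmox1 and Hp lie away from 0, and those of Blvrb, Slc11a1, Fth1 and Ftl1 cross it within -0.64 to 0.63.

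The ferritin subunits did not pass. For Fth1, the ferroxidase subunit, ILMN_2876066 read 15.61 and 15.62 on the log2 scale in control and 15.48 and 15.36 in the knockout, and ILMN_2876071 read 15.19 and 15.25 against 15.29 and 14.82. The groups of the first probe did not overlap, while those of the second did. The changes were -0.19 ± 0.14 and -0.17 ± 0.20 (95% intervals -0.54 to 0.16 and -0.64 to 0.31). For Ftl1, the light subunit that helps mineralise the core, the bright probe read 15.52 and 15.39 against 15.49 and 15.63, a change of 0.11 ± 0.15 (-0.26 to 0.48). A fall of 1 in signal on the log2 scale lay outside all of these intervals. A rise of 1 could not be judged, because control signals were already at 71.6% to 92.7% of the highest intensity on each array. No source used here gives the scanner range, so signals are set against the highest intensity on each array. ILMN_2876066 had 74.6% to 92.7% of it, ILMN_2876071 52.2% to 72.3% and the bright Ftl1 probe 79.3% to 91.1%. Whether the signal was still linear there was not tested, so the intervals hold for signal and may not hold for the amount of RNA. A second Ftl1 probe was not detected on any array (raw intensity 129 to 136), so the Ftl1 probes disagreed on whether the RNA was present.

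Slc11a1, which pumps iron and manganese out of phagosomes and of which C57BL/6 mice are known to carry a loss-of-function allele, was bright and did not pass with any of its 4 probes. The brightest read 14.74 and 14.81 in control and 14.83 and 14.89 in the knockout. The others ranged from 12.12 to 14.46 in control and from 12.17 to 14.43 in the knockout, with overlapping groups. The changes were -0.14, 0.08, -0.003 and 0.13, with 95% intervals between -0.53 and 0.53.

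Ferroportin RNA was near background. The Slc40a1 probe ILMN_2747923 read 4.91 and 5.18 in control and 6.43 and 5.51 in the knockout, with detection p-values of 0.463 and 0.187 against 0.0053 and 0.0865. It was detected on knockout 1 alone and was therefore not tested. Without the detection filter it had a log2 change of 0.93 ± 0.30 (limma adjusted p = 0.247). The second Slc40a1 probe read 4.72 to 4.81 on all 4 arrays and was not detected.

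Spic, the transcription factor that red pulp macrophages of the spleen need, and a known haem-inducible gene, was not detected by either probe on any array, with raw intensities of 109 to 128 and detection p-values of 0.528 to 0.974. Other genes of red pulp macrophages were mixed. Vcam1, Treml4 and Cd5l were not detected on any array. Among the 9 tested probes of that list the 3 for Adgre1 were lower and those for Nr1h3 (1.14 ± 0.15) and Axl (0.99 ± 0.14) higher. The list summed to 79192 to 80457 in control and 51707 to 53768 in the knockout. Bright probes weigh most in this sum, among them those of Adgre1. Raw intensities of ILMN_2847787 were 27367 and 26457 in control and 8995 and 9834 in the knockout. Those of ILMN_1216880 were 31745 and 24858 against 7779 and 10914.

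Other genes of iron and haem metabolism were read from 6 lists, in which 6 of 82 tested probes passed (7.32%), beside 10.7% of all tested probes. In iron uptake and transport 1 of 16 tested probes was higher and 4 were lower, 31.2% in all, with a median log2 change of -0.32. Beside Lcn2, Slc22a17, a receptor for the Lcn2 protein, read 8.43 and 8.78 in control and 6.87 and 6.50 in the knockout (-1.92 ± 0.20, limma adjusted p = 0.0027), while its second, dim probe had a change of 0.10 ± 0.42. One probe for the ferroxidase ceruloplasmin (Cp) was not detected in the knockout and was at least 3.40-fold lower (limma adjusted p = 0.0015). The bright Cp probe, at -0.34 ± 0.16, did not pass, nor did the third Cp probe at -0.15 ± 0.15.

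The other genes that passed on this list, named after their values were seen, had smaller changes. The ferric reductase Steap3, which works in the endosome after transferrin receptor uptake, read 8.97 and 9.03 in control and 9.80 and 9.98 in the knockout (0.88 ± 0.15, limma adjusted p = 0.0160), while its second probe did not pass (0.46 ± 0.16, limma adjusted p = 0.126). Transferrin itself (Trf) was very bright and lower, 15.57 and 15.70 against 14.99 and 14.94 (-0.67 ± 0.15, limma adjusted p = 0.0375). Its control signal was at 88.5% and 97% of the highest intensity on those arrays and its knockout signal at 56.9% and 55.5%, and linearity in that range was not tested. In haem transport and breakdown 1 of 8 tested probes was higher and none lower. This was Blvra, the biliverdin reductase that makes the main form of bilirubin, which read 11.62 and 11.52 against 12.18 and 12.22 (0.63 ± 0.14, limma adjusted p = 0.0434). Steap3, Trf and Blvra did not pass when any 1 of the 4 arrays was left out, at changes of 0.79 to 0.97, -0.75 to -0.60 and 0.57 to 0.68.

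**Figure D3:**
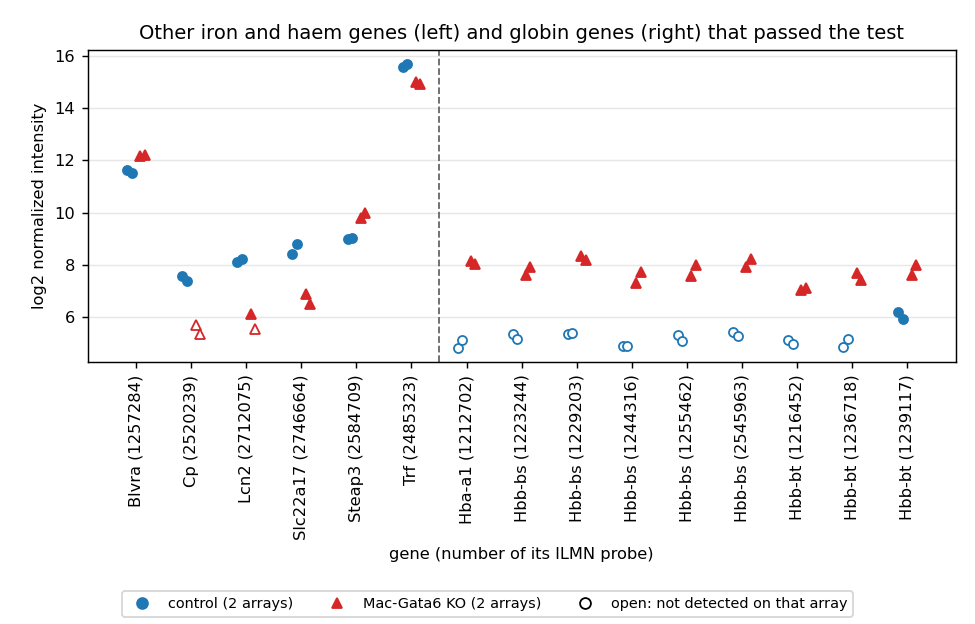
Log2 normalized intensity (vertical axis) on each array of the iron and haem probes outside the 10 genes that passed the test (left of the dashed line) and of the globin probes that passed (right); blue circles are control, red triangles Mac-Gata6 KO, and open symbols were not detected on that array. Cp, Lcn2, Slc22a17 and Trf lie lower in the knockout and Blvra, Steap3 and the globin probes higher.

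No probe passed in the remaining lists by limma. These were haem synthesis (12 tested probes, log2 changes from -0.15 to 0.76), iron storage and regulation beside ferritin (21, from -0.80 to 0.53), iron-sulphur cluster assembly (12, from -0.61 to 0.34), and the haem-sensing repressor Bach1 with Nrf2 (Nfe2l2), their partners and targets (13, from -0.28 to 0.73). At an unadjusted p under 0.05 there were 1, 2, 2 and 2 probes in these lists in that order. The iron regulatory proteins Aco1 and Ireb2 had log2 changes of 0.35 for Aco1 and of -0.04 and 0.29 for Ireb2. Bach1 had a change of -0.25 ± 0.15, and Nqo1 and Slc7a11, 2 known targets of Nrf2, were not detected on any array. Hepcidin (Hamp, Hamp2), which controls ferroportin protein, was not detected on any array.

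Markers of macrophage subsets and of other cells also differed between the groups, and their part in the iron and haem values was not tested. The lists were chosen with earlier results of these data known, and the large peritoneal macrophage list holds Gata6 itself. Their counts are therefore no independent evidence of a shift. Over all tested probes 5.63% were higher and 5.06% lower. Of 22 tested probes of large peritoneal macrophage genes 19 were lower and none higher, and of 18 for small peritoneal macrophages 16 were higher and none lower. Monocyte genes had 4 of 9 probes higher and 1 lower, B cell genes 8 of 10 higher, eosinophil and mast cell genes 2 of 7 higher, dendritic cell genes 2 of 3 higher, and T and NK cell genes 1 of 2 higher, with none lower in the last 4. Summed levels of B cell genes were 1398 to 1434 in control and 2856 to 3237 in the knockout. Those of the small peritoneal macrophage list were 54406 to 56779 and 220726 to 227073, and those of the large one 208707 to 213118 and 68195 to 69885. Monocyte genes summed to 74783 to 78059 in control and 92409 to 92868 in the knockout, and core macrophage genes to 273455 to 278972 and 250636 to 261487. Cd3d, Cd3e, Pax5, Siglecf, Flt3 and Zbtb46 were not detected on any array.

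The 4 arrays were alike in overall signal. Each detected between 35.5% and 36.4% of all probes and had a median raw intensity of 136 to 146. Over the tested probes 2 arrays differed by a median of 0.17 within control, 0.19 within the knockout and 0.26 to 0.30 between groups (log2).

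**Figure D4:**
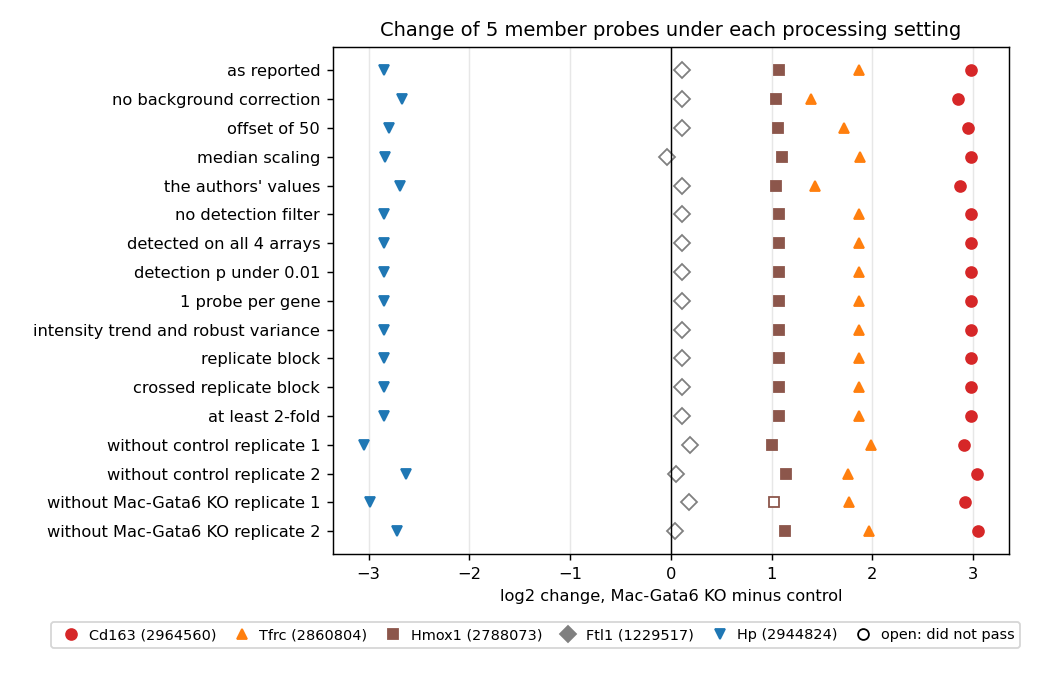
Log2 change, Mac-Gata6 KO minus control (horizontal axis), of 5 probes (Cd163, Tfrc, Hmox1, Ftl1 and Hp) under each processing setting (rows); open symbols did not pass in that setting. Cd163 stays between 2.85 and 3.05 and Hp between -3.05 and -2.63, while Tfrc goes down to 1.39 without background correction and Hmox1 does not pass without knockout 1.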

How the data were processed

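Non-normalized probe intensity and its detection p-value on every array were deposited by the authors, per the file headers. Their processed intensity, on a linear scale with a median of 142 on each array, served as an alternative. No source used here names the software behind either. The 4 arrays hold 45281 probes, and no per-sample column was left unused.

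Background correction, quantile normalization and log2 transformation used the neqc function (limma 3.58.1, R 4.3.3, offset 16). Probes with a detection p-value under 0.05 on 2 or more arrays were tested across the whole array, each probe on its own, with lmFit and eBayes of limma, Mac-Gata6 KO minus control, no block, two-sided. A probe was called at a Benjamini-Hochberg adjusted p under 0.05 over all 16713. The procedure was tested on simulated data. Values after ± are standard errors of the fit (n = 2 arrays per group), and intervals are at 95%. Both use the variance from eBayes, which pools each probe's own spread with that of all tested probes. Precision is limited by how few arrays there were. Where both arrays of a group missed a probe, its fold is a bound, against the higher of its own value and the lowest detected signal on each array. Summed levels add normalized intensity less the offset over all probes of a list.

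Symbols came from the platform annotation (34885 probes with 1 symbol, 18 with several, 10378 with none), and 34807 matched RefSeq gene identifiers of GRCm38.p6. The members and lists were chosen with earlier results of these data known. Named genes were the members, Gata6, and up to 3 passing probes of each list with the smallest p. Steap3, Trf, Nr1h3, Axl, Aco1, Ireb2, Bach1, Klf1 and Csf3r were named after their values were seen. Genes given as detected or not serve as checks of a list. Alternatives covered background, offset, scaling, the authors' values, detection filters, probes per gene, variance model, replicate block, a fold threshold and each array left out.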

Additional observations from a re-analysis of the deposited data

How the results depend on the processing

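The calls of Cd163 (bright probe), Tfrc and Hp kept direction and side of the threshold in every setting that tested them, and Hmox1 in every one except without knockout 1. Member probes higher and lower numbered 4 or 5 and 3 in the settings that kept all 4 arrays, except with 1 probe per gene, where 3 were higher and 1 lower because fewer probes are tested; with 1 array left out they numbered 3 to 4 and 3. The dim Cd163 probe did not pass with median scaling, without a detection filter, with the crossed replicate block or without either control. Over all probes, skipping background correction called 1520 higher and 1473 lower. The authors' values called 1515 and 1462, a robust variance trended on intensity 1499 and 1452, and a further 2-fold threshold 521 and 443. Leaving out 1 array gave 275 to 560 higher and 309 to 446 lower. Gata6 (log2 change -0.76) did not pass without a detection filter (limma adjusted p = 0.0580), nor at the 2-fold threshold, where its change is too small by construction, nor with 1 array left out (-0.91 to -0.63). Some probes that did not pass changed sign. With median scaling Slc11a1 was at -0.10 and -0.025 and Ftl1 at -0.044. With 1 array left out 2 Slc11a1 probes ranged from -0.19 to 0.19 and from -0.035 to 0.29, Fth1 ILMN_2876071 from -0.41 to 0.073 and Blvrb ILMN_2770917 from -0.026 to 0.36. Where no reason is given, the cause was not tested. Other named probes lost the threshold 30 times in settings with 4 arrays and 40 times with 1 array left out.

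The labels do not say that replicate numbers pair the samples, and same-numbered deviations correlated at -0.14 over probes (not independent points). The fit with a replicate block called 842 probes higher and 749 lower, 5 and 3 of them members, and Gata6 changed by -0.76. The crossed pairing was added after seeing the data and called 930 higher and 837 lower. A lone array of a group was assumed to vary like the other group. Signal near background limits Slc40a1, Spic and the dim Cd163 probe. No slide was named for the arrays, so a slide block was not run.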
